A study of Mus musculus with 70 samples.

Results

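Glyoxalase 1 (Glo1) was measured in 7 brain regions of HAB vs. LAB mice, 2 mouse lines selected for high and low anxiety-related behavior. The gene is represented on the MPIP24k cDNA array by 5 spots. All 5 carry the array name RIKEN cDNA 1110008E19 gene, an older name that the RefSeq gene table lists as a synonym of Glo1 (gene ID 109801); no spot bears the name glyoxalase 1 itself. They are 5 of the 22824 probes that remained after control spots were left out, and they are called here by their number on the array: 9180, 11751, 14858, 15720 and 20091. The 5 probes lie in 5 different print-tip blocks and are separate spots read on the same arrays, so they are not replicates of a condition. Which part of the Glo1 transcript each spot carries is not given in the sources used here. In the RefSeq table (GRCm38.p6) the gene occupies chromosome 17, 30592861 to 30612659.

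Both lines were bred from CD-1 (ICR) mice, and all animals were male, 10 weeks old and kept under basal conditions. Tissue was punched from frozen slices of the hypothalamic paraventricular nucleus (PVN), the basolateral (BLA), central (CeA) and medial (MeA) amygdala, the nucleus accumbens (NAc), the cingulate cortex (Cg) and the supraoptic nucleus (SON). RNA of 6 HAB mice and RNA of 6 LAB mice was pooled in each region, and the 1 pair of pools was hybridized to 10 arrays, of which 5 carried HAB in Cy3 and the other 5 in Cy5. These 10 arrays repeat the hybridization of 1 pair of pools, and the regions come from the same mice; every p-value below therefore compares pools and is too small as a p-value of the lines. A difference between the lines, the handling of 1 pool and the amplification of its RNA cannot be told apart.

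Glo1 encodes the first enzyme of the glyoxalase system, the main route by which cells dispose of methylglyoxal. Methylglyoxal is a reactive dicarbonyl that forms as a by-product of glycolysis, mostly from triose phosphates. It reacts with glutathione, Glo1 turns the adduct into S-lactoylglutathione, and the second enzyme, hydroxyacylglutathione hydrolase (Hagh), releases lactate and returns the glutathione. Methylglyoxal that is not removed modifies proteins, and it is also known as an agonist of GABA-A receptors. Glo1 has been studied as a gene of anxiety-related behavior in mice.

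The tissue labels were checked against marker genes. Vasopressin (Avp), a hormone of magnocellular neurons, was brightest in SON and PVN, where its probe stood 1.24 and 1.02 log2 units above its mean over the 7 regions. Oxytocin (Oxt), the other measured marker of these neurons, was brightest in PVN (0.44 above its mean). In SON it stood 0.06 above its mean, below CeA (0.23) and BLA (0.14). The forebrain kinase Camk2a was brightest in Cg (1.74 above its mean), and 4 of 5 measured markers of excitatory neurons were brightest in Cg; the exception, Nrgn, was brightest in CeA. Of 5 measured striatal markers, 2 were brightest in NAc, among them the tachykinin precursor gene Tac1 (1.18 above its mean), whereas Adora2a was brightest in PVN, Ppp1r1b in MeA and Penk in BLA. Of all probes, 36.3% to 85.8% per array lay above the empty spots. Among the marker genes of other cell types, the beta-globin gene Hbb-b1 of red blood cells passed the test over regions (log2 HAB/LAB 0.84, adjusted p = 0.000338, limma), whereas Hba-a1 stood at -0.10 and Alas2 at 0.14. The summed log2 level of these 3 blood markers ran from 26.4 to 29.3 in the HAB pools and from 25.7 to 27.5 in the LAB pools, and HAB was higher in 6 of 7 regions, by the most in SON. Within single regions, Hbb-b1 passed as higher in HAB by limma in SON (1.88), PVN (0.99) and Cg (0.83). The part of blood in the Glo1 values was not tested. Without SON, Glo1 probe 15720 stood at -0.80 (adjusted p = 9.71e-05, limma) and probe 9180 at -0.64 (adjusted p = 0.0011). These values still include PVN and Cg.

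Differences are given as log2 HAB/LAB, where a negative value means less signal in HAB than in LAB mice. Glo1 was lower in HAB mice on 3 of its 5 probes over the 7 regions, which left 54.9% to 66.3% of the LAB signal. Of all 22824 probes, 0.302% passed this test, 0.175% lower and 0.127% higher in HAB, and the median of all probes was -0.00. Probe 15720 showed the largest difference of the 5 (-0.86, SE 0.0939, 95% interval -1.06 to -0.67, adjusted p = 4.76e-06, limma over 7 region values), or 54.9% of LAB. Probe 9180 stood at -0.65 (SE 0.0856, 95% interval -0.83 to -0.48, adjusted p = 8.75e-05), or 63.6% of LAB. Probe 14858 stood at -0.59 (SE 0.105, 95% interval -0.81 to -0.38, adjusted p = 0.00447), or 66.3% of LAB. Each of these 3 probes was below 0 in 7 of 7 regions, as were 1.06% of all probes.

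The other 2 probes did not pass. Probe 11751 had a mean of similar size (-0.52, SE 0.127, adjusted p = 0.105, limma) but a wider spread, with a value below 0 in 6 of 7 regions. Without NAc it stood at -0.59 (adjusted p = 0.0475) and without Cg at -0.65 (adjusted p = 0.0181). Probe 20091 stood at -0.18 (SE 0.0909, adjusted p = 0.806), with a 95% interval from -0.37 to 0.01. It was also the dimmest against the empty spots, lying above them on 44 of 70 HAB channels and 46 of 70 LAB channels, compared with 67 and 69 for probe 9180, 58 and 70 for probe 14858, 61 and 66 for probe 15720 and 50 and 56 for probe 11751. No Glo1 spot was saturated on any array. The mean of the 5 probes was -0.56 (adjusted p = 0.00259, limma over genes with their probes averaged).

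Counted over single arrays, the HAB channel was the lower one on 65 of 70 arrays for probe 15720 and on 62 of 70 for probes 9180 and 14858. It was lower on 52 of 70 arrays for probe 11751 and on 43 of 70 for probe 20091. These are counts of technical replicates and describe how evenly the arrays of a pair of pools repeated the difference.

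**Figure D1:**
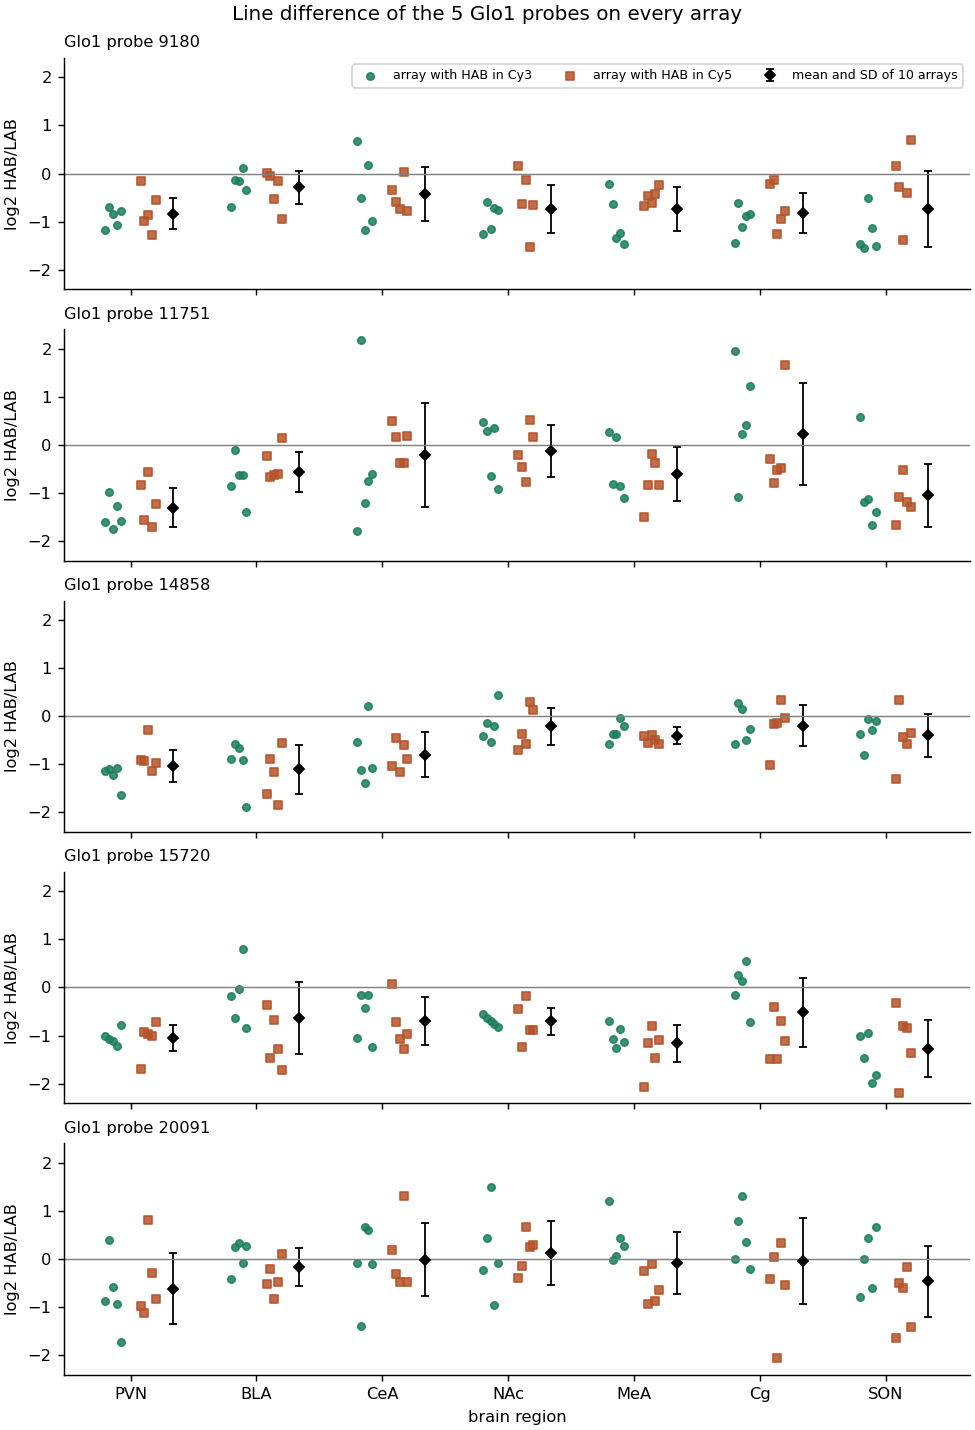
Log2 HAB/LAB of each Glo1 probe (one panel per probe) on every array, by brain region. Circles are arrays where Cy3 labelled HAB and squares arrays where Cy5 did; the diamond and bar are the mean and SD of the 10 arrays of a region, and the grey line marks equal signal. For probe 15720, 65 of the 70 points lie below the line, for probe 20091 43.

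In PVN, 4 of the 5 probes were lower in HAB mice, and this was the only region where more than 1 passed. The background there was 0.245% of probes called lower in HAB. Across the 10 PVN arrays, probe 15720 ran from -1.69 over a median of -1.01 to -0.71, and its region value was -1.05 (SE 0.11, adjusted p = 0.00098, limma over 10 arrays with a dye term). Probe 14858 ran from -1.63 over a median of -1.10 to -0.30, with a region value of -1.05 (SE 0.108, adjusted p = 0.00098). Probe 11751 ran from -1.76 over a median of -1.42 to -0.57, with a region value of -1.31 (SE 0.132, adjusted p = 0.00081), the lowest region value of any Glo1 probe. Every array was below 0 for these probes and for probe 9180 (from -1.28 over a median of -0.85 to -0.15, region value -0.84, SE 0.118, adjusted p = 0.00723), as was the case for 0.692% of all probes in PVN. Probe 20091 stood at -0.62 (SE 0.217, adjusted p = 0.349), with 8 of 10 arrays below 0 and a highest array at 0.80.

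The normalized intensities of the HAB and LAB channels did not overlap in PVN for probe 9180, which lay between 9.68 and 10.3 in HAB and between 10.4 and 11.1 in LAB on the log2 scale. They did not overlap for probe 11751 either, with 7.99 to 9.24 in HAB and 9.50 to 10.8 in LAB. Complete separation with HAB lower was seen for 0.0394% of all probes in PVN. The channels of the other 3 probes overlapped there.

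In the 2 other regions with the deepest values of probe 15720, MeA and SON, this probe alone passed. In MeA it ran from -2.07 over a median of -1.12 to -0.71, all 10 arrays below 0, and its region value was -1.16 (SE 0.153, adjusted p = 0.00472, limma). HAB intensities in MeA were between 8.86 and 10.1 and LAB intensities between 10.2 and 11.3, without overlap. The background in MeA was 0.0613% of probes called lower, 0.403% with all arrays below 0 and 0.0131% without overlap. Probes 9180 (-0.73, adjusted p = 0.165) and 14858 (-0.40, adjusted p = 0.484) were also below 0 on all 10 MeA arrays without passing the test. Probes 11751 (-0.61) and 20091 (-0.09) were below 0 on 8 and 6 of the 10 arrays.

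In SON, probe 15720 ran from -2.19 over a median of -1.19 to -0.32, again with all 10 arrays below 0, as for 0.263% of all probes there. Its region value was -1.28 (SE 0.203, adjusted p = 0.0116, limma), against a background of 0.0175% called lower. Probe 11751 stood at -1.05 (SE 0.217, adjusted p = 0.108), with 9 of 10 arrays below 0 and 1 array at 0.59. Probe 9180 stood at -0.74 (SE 0.207, adjusted p = 0.416) with 8 of 10 arrays below 0, probe 14858 at -0.39 with 9 of 10 and probe 20091 at -0.46 with 7 of 10.

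In the nucleus accumbens, probe 15720 had less signal in the HAB pool (-0.71, SE 0.135, adjusted p = 0.02, limma), and its 10 arrays ran from -1.24 over a median of -0.72 to -0.17. Here 0.999% of all probes were called lower and 1.44% had all 10 arrays below 0. Probe 9180 had a region value of -0.73 (SE 0.165, adjusted p = 0.0504), with 9 of 10 arrays below 0. The oligodendrocyte genes Cnp (-1.36, adjusted p = 0.000212) and Mobp (-1.22, adjusted p = 0.000263) were lower in HAB in the same pools, 2 of 7 markers of these cells, and their part in the Glo1 values was not tested. The remaining Glo1 probes were nearer 0 in NAc: 14858 stood at -0.21, 11751 at -0.13 and 20091 at 0.13, the last with 5 of 10 arrays on either side of 0.

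In the basolateral amygdala, probe 14858 was lower in HAB mice, from -1.88 over a median of -0.90 to -0.56 on the 10 arrays, with a region value of -1.10 (SE 0.174, adjusted p = 0.0132, limma). The background in BLA was 0.0657% called lower and 0.197% with all 10 arrays below 0. In the LAB pool this probe lay above the empty spots on 10 of 10 arrays and in the HAB pool on 5 of 10, so the size of its difference is uncertain. Markers of the choroid plexus were also lower in the HAB pool of BLA: of 6 listed genes 4 were measured, and 2 of them passed within BLA, the thyroxine carrier gene Ttr (-1.79, adjusted p = 5.48e-05, limma) and Enpp2 (-1.49, adjusted p = 8.52e-05). The summed log2 level of these 4 genes was 35.5 in HAB and 39.5 in LAB, beside 36.2 to 37.8 in HAB and 35.4 to 37.4 in LAB in the other 6 regions. The part of this tissue in the Glo1 values of BLA was not tested; over the regions without BLA, probe 14858 stood at -0.51 (adjusted p = 0.0367). Probe 15720 stood at -0.64 (SE 0.186, adjusted p = 0.523), probe 11751 at -0.56 (SE 0.157, adjusted p = 0.516), and probe 9180, which had its smallest difference here, at -0.29 (SE 0.15, adjusted p = 0.768).

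In the cingulate cortex, probe 9180 had less signal in the HAB pool (-0.82, SE 0.165, adjusted p = 0.0356, limma), with arrays from -1.45 over a median of -0.85 to -0.13. In Cg 0.289% of probes were called lower and 0.889% had all 10 arrays below 0. The oligodendrocyte genes Cnp (-0.99) and Mobp (-0.89) passed as lower in HAB in these pools; their part in the Glo1 values was not tested. The other probes did not pass here: 15720 stood at -0.51 (SE 0.175, adjusted p = 0.273), 14858 at -0.20 (SE 0.169, adjusted p = 0.73) and 11751 at 0.23 (SE 0.282, adjusted p = 0.818). Probe 11751 spanned -1.09 to 1.96 over the 10 Cg arrays, and its LAB channel lay above the empty spots on 4 of them.

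In the central amygdala no Glo1 probe passed, and 0.0394% of all probes were called lower. Probe 14858 had the largest difference there (-0.80, SE 0.172, adjusted p = 0.0875, limma), from -1.40 over a median of -0.96 to 0.22, and probe 15720 stood at -0.70 (SE 0.174, adjusted p = 0.125). Each was below 0 on 9 of 10 arrays. The HAB channel of probe 14858 lay above the empty spots on 4 of 10 CeA arrays, and the size of its difference is uncertain there as in BLA. Probe 9180 stood at -0.43 (SE 0.188, adjusted p = 0.385) and probe 20091 at -0.01. Probe 11751 (-0.21, SE 0.29) spanned -1.80 to 2.18 in CeA, the widest range of any Glo1 probe in any region.

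Over all regions, 33 of the 35 region values of the 5 probes were below 0. Of the 35, 9 passed the test within a region, in 6 of the 7 regions. Of all 22824 probes, 11468 had a mean over regions below 0, and 0.0175% (SON) to 0.999% (NAc) were called lower within a region. The 35 values come from 5 spots on the same arrays and pools and are not independent results. Probe 15720 passed in 4 regions, as at least that many did for 0.0263% of all probes. Probes 9180 and 14858 passed in 2 regions each, as at least that many did for 0.294%. The count of 9 changed when arrays were left out. It was 4 without replicate 2, 4 without replicate 3, 3 without replicate 4, 4 without replicate 5 and 7 without replicate 1. Each of these settings left 8 arrays per region. Whether the number or the choice of arrays mattered was not tested.

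**Figure D2:**
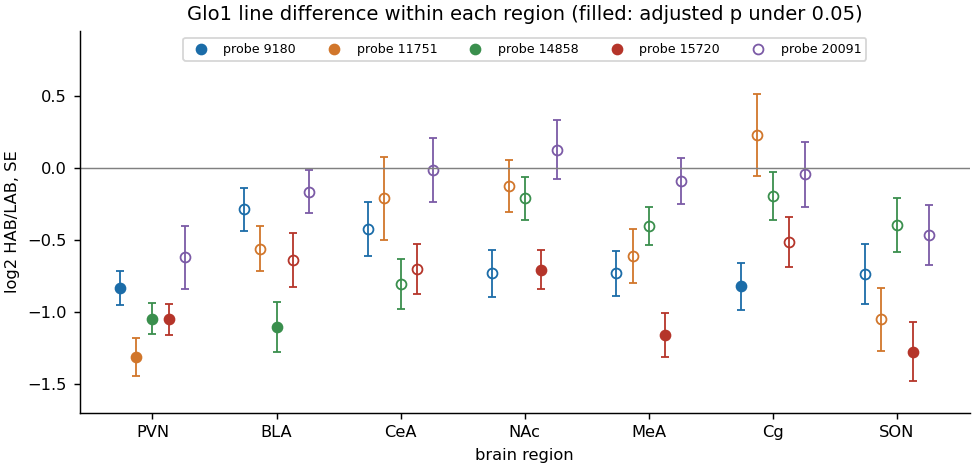
Log2 HAB/LAB of the 5 Glo1 probes within each brain region, with the SE from limma over the 10 arrays of that region. Filled circles passed the test within the region; open circles did not. In PVN 4 of the 5 circles are filled, in CeA none.

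The difference between the lines varied between regions for 2 probes. In limma's F-test over the 70 arrays, probe 14858 (adjusted p = 0.000308) and probe 11751 (adjusted p = 0.00468) passed, as did 6.09% of all probes. The region values of probe 14858 spanned 0.91 log2 units and those of probe 11751 spanned 1.54. Probe 15720 spanned 0.76 (adjusted p = 0.0588), probe 20091 0.75 (adjusted p = 0.486) and probe 9180 0.55 (adjusted p = 0.42), and these 3 did not pass. Probe 11751 no longer passed without replicate 4 (range 1.56, adjusted p = 0.0992) or without replicate 5 (range 1.22, adjusted p = 0.135).

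The pairs of regions behind these results can be named. For probe 14858 the HAB deficit was larger in BLA than in Cg by 0.91 (adjusted p = 0.00586, against 1.23% of probes called for this pair) and larger in BLA than in NAc by 0.89 (adjusted p = 0.00852, against 0.916%). It was also larger in PVN than in Cg by 0.85 (adjusted p = 0.00952, against 1.36%) and larger in PVN than in NAc by 0.84 (adjusted p = 0.0124, against 1.17%). For probe 11751 the deficit was larger in PVN than in Cg by 1.54 (adjusted p = 0.00275) and larger in PVN than in NAc by 1.19 (adjusted p = 0.047). It was larger in SON than in Cg by 1.28 (adjusted p = 0.0218, against 1.49% of probes). These are 7 of 105 contrasts of the 5 probes over 21 pairs of regions, with p-values from limma adjusted over all probes for each pair and not further over the pairs. In Cg, probe 11751 lay above the empty spots on 6 of 10 HAB channels and 4 of 10 LAB channels, so the sizes of its contrasts with Cg are uncertain. In BLA, probe 14858 lay above them on 5 of 10 HAB channels, so the sizes of its contrasts with BLA are uncertain too. The values of probe 9180 were -0.82 in Cg and -0.73 in NAc.

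The probes were set against each other over the 7 regions with an exact two-sided sign-flip test, whose smallest possible p is 0.0156. None of the 10 pairs passed after Benjamini-Hochberg adjustment, which at this size needs at least 4 pairs at the smallest p, so that a pair alone could not pass. Probe 15720 was lower than probe 20091 in 7 of 7 regions, by 0.68 on average (exact p = 0.0156, adjusted p = 0.0781), and probe 9180 was lower than probe 20091 in 7 of 7 regions, by 0.47 (exact p = 0.0156, adjusted p = 0.0781). Between probes 9180 and 15720 the mean difference was 0.21 (SD 0.29), with 15720 the lower one in 5 regions. Across the 70 arrays, Pearson's r between 2 Glo1 probes ran from -0.18 (9180 and 14858) to 0.33 (14858 and 20091), a description over arrays that share pools. Across the 7 region values it ran from -0.58 (9180 and 14858) to 0.89 (11751 and 20091).

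In some regions the values differed between the dye orientations. Probe 15720 stood at 0.02 in Cg with HAB in Cy3 and at -1.04 with HAB in Cy5, and in BLA at -0.18 and -1.10. Probe 9180 in SON went the other way, with -1.23 for HAB in Cy3 and -0.24 for HAB in Cy5. Probe 20091 had opposite signs in MeA (0.39 and -0.57) and in Cg (0.44 and -0.53). In Cg, 4 of the 5 arrays with HAB in Cy3 were scanned on the second day. All 5 with HAB in Cy5 were scanned on the first, so dye and scan day can hardly be told apart there. Over the 7 regions no Glo1 probe had a dye term past the test (adjusted p from 0.236 for probe 20091 to 0.963 for probe 11751, limma), whereas 4.99% of all probes did. Since each region holds 5 arrays of either orientation, a dye effect cancels in its mean.

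Arrays of 3 regions were scanned on 2 days according to the scan headers, and those of PVN, NAc, MeA and SON on 1 day each. Values of a day are means of its 2 dye orientations. In BLA, 7 arrays of the first day, 3 and 4 per orientation, gave -0.74 for probe 15720, -0.97 for probe 14858 and -0.31 for probe 9180. In CeA the 8 arrays of the second day, 3 and 5 per orientation, gave -0.70, -0.79 and -0.57. The second day of BLA (-0.36, -1.28 and -0.32) and the first day of Cg (-0.60, -0.39 and -1.06) each include a single array of 1 orientation. Without it the 2 remaining arrays of BLA stood at -0.02, -1.40 and -0.11, and the 5 remaining arrays of Cg at -1.04, -0.20 and -0.67, each of 1 dye orientation. The other scan days of CeA and Cg held 1 orientation only.

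The level of Glo1 over the regions was read from the normalized log2 intensity of each probe, taken as the mean of both lines; levels are described for 1 probe at a time. Probe 9180 was brightest in Cg (11.1 in LAB and 10.3 in HAB) and dimmest in BLA (9.79 and 9.50), a span of 1.08 between the means. Probe 15720 was brightest in SON (11.6 in LAB, SD 0.465, and 10.3 in HAB, SD 0.734) and dimmest in BLA (9.66 and 9.02), a span of 1.61. Probe 14858 was also brightest in SON (11.6 and 11.2) and dimmest in CeA (9.40 and 8.60), a span of 2.41. The LAB level lay above the HAB level in every region for these 3 probes.

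From the highest to the lowest, probe 15720 followed the order SON, MeA, Cg, NAc, CeA, PVN, BLA and probe 14858 the order SON, MeA, Cg, NAc, PVN, BLA, CeA. Probe 9180 followed the order Cg, MeA, SON, PVN, CeA, NAc, BLA. Probe 11751 followed the order BLA, CeA, PVN, SON, NAc, MeA, Cg, with Cg lowest at 8.37 in LAB and 8.60 in HAB, and probe 20091 the order SON, BLA, MeA, NAc, Cg, CeA, PVN. Of the 30 steps between neighbours in these orders, 1 passed the test: probe 14858 was 0.88 brighter in NAc than in PVN (SE 0.209, adjusted p = 0.000535, limma), a contrast that 28.6% of all probes passed. The orders were taken from these same data and only neighbours were compared, so the tested steps are the smallest ones. The count of 1 therefore does not measure how far the levels differ over the regions. Steps between regions further apart were not tested. Regions were hybridized to separate arrays, so region and array cannot be told apart. With intensities centred on the array median, PVN came highest for probe 9180 and CeA lowest for probe 15720. In punches of tissue, fewer cells that express the gene and less RNA per cell cannot be told apart.

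**Figure D3:**
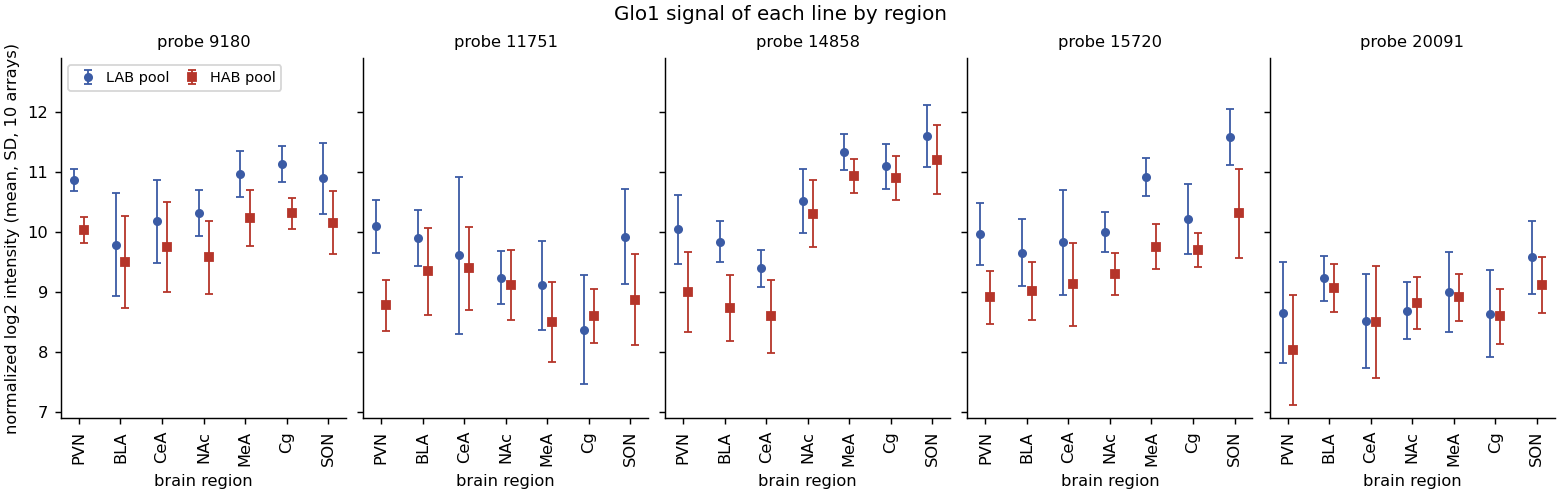
Normalized log2 intensity of the Glo1 probes in the LAB pool (circles) and the HAB pool (squares) of each brain region, as mean and SD of 10 arrays. Panels are not comparable with each other, and regions within a panel were hybridized to separate arrays. For probes 9180, 14858 and 15720 the LAB mean lies above the HAB mean in all 7 regions.

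The probes whose line difference was most like that of Glo1 were found by the root mean square difference from probe 9180, the brightest Glo1 probe, over the 7 regions. The nearest was an unnamed EST clone, probe 281 (0.15), followed by the zinc finger gene Zfp871 (0.21), molybdenum cofactor synthesis 2 (0.22), the clone gene 2610528A11Rik (0.24) and a second unnamed EST clone, probe 3238 (0.26). Zfp871 stood at -0.60 over the regions, 2610528A11Rik at -0.61 and molybdenum cofactor synthesis 2, an enzyme subunit of cofactor assembly, at -0.50. Across the 70 arrays, Pearson's r of these 5 with probe 9180 ran from 0.01 to 0.16. Among all other probes the Glo1 probes 15720, 14858, 11751 and 20091 came at ranks 24, 280, 472 and 700 by this measure.

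The second enzyme of the glyoxalase system, Hagh, did not pass (0.10, SE 0.0837, 95% interval -0.07 to 0.28, adjusted p = 0.915, limma). Its probe lay above the empty spots on 37 of 70 HAB channels and 31 of 70 LAB channels. The glyoxalase domain genes Glod4 (-0.00) and Glod5 (0.02) did not pass either, and Park7 and Ldhd were not matched to a spot. Glo1, through its brightest probe, was thus the 1 of 4 measured genes of the system that passed, and the median of the 4 was 0.01.

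The genes that supply or use glutathione did not pass over the regions. Of 24 genes of glutathione synthesis and conjugation, 21 were measured and 0 passed, beside 0.302% of all probes. Of the 21, 4 had an unadjusted p under 0.05 (19%, beside 6.33% of all probes), and the median of the 21 was 0.03. The catalytic subunit of the rate-limiting enzyme of glutathione synthesis, Gclc, stood at 0.08 (SE 0.0832, adjusted p = 0.94, limma). The modifier subunit Gclm stood at 0.22 (SE 0.0942, adjusted p = 0.753), but lay above the empty spots on 16 of 70 HAB channels and 11 of 70 LAB channels. Within single regions, Gpx4, a peroxidase that uses glutathione to reduce lipid peroxides, was lower in HAB in NAc (-1.02, adjusted p = 0.000456) and in Cg (-0.73, adjusted p = 0.0277); it was named after its values were seen, and over the regions it stood at -0.26 (adjusted p = 0.765).

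Among the 16 enzymes of glycolysis, the source of methylglyoxal, 15 were measured and 0 passed, with a median of -0.06. Of all probes 0.302% passed this test, so a count of 0 in this or the next lists is near that share. Triosephosphate isomerase (Tpi1), which interconverts the triose phosphates, stood at -0.05 (SE 0.0777, 95% interval -0.21 to 0.11, adjusted p = 0.97, limma). Of 15 other enzymes that reduce or oxidize reactive carbonyls, 13 were measured and 0 passed, with a median of 0.05. Aldose reductase (Akr1b3), an alternative route for methylglyoxal, stood at 0.11 (SE 0.0791, adjusted p = 0.898). Of 12 genes of the glycation receptor and the NRF2 response, 8 were measured and 0 passed (median 0.00); the receptor gene Ager itself was not matched to a spot. Of 12 GABA-A receptor subunits, 6 were measured and 0 passed (median -0.04).

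In all, 66 of the 84 other genes of these lists were measured, and 0 passed over the regions by limma, beside 0.302% of all probes. At that share, 0 calls among 66 genes do not set these lists apart. An unadjusted p under 0.05 was found for 5 of the 66 (7.58%, beside 6.33% of all probes). The values of the 66 genes lay between -0.26 (Gpx4) and 0.27 (Gstt2, a glutathione transferase), with a median of 0.01 beside -0.00 for all probes. All 4 Glo1 probes other than 20091 lay below this range.

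The genes next to Glo1 on chromosome 17 were examined because a segment with Glo1 and adjacent genes is known to be duplicated in some laboratory mice; copy number was not measured here. Of the 10 genes before and the 10 after Glo1 that encode proteins, 9 were measured. By limma over the regions 0 of the 9 passed, beside 0.302% of all probes. An unadjusted p under 0.05 was found for 0 of the 9, beside 6.33% of all probes. Their median was 0.02. Of these 9 genes, 6 lay above the empty spots on at least 35 of the 70 HAB channels or of the 70 LAB channels. A difference in the dimmer ones could have been missed. The nearest measured gene, Btbd9, stood at -0.09 (SE 0.0838, 95% interval -0.26 to 0.09, adjusted p = 0.932), and its other probe at 0.01. Zfand3 stood at 0.05, Rnf8 at 0.02, Pim1 at 0.03 and Ccdc167 at -0.00 on one side. On the other side the sterol transporter gene Abcg1 stood at 0.00 and the trefoil factor genes Tff1, Tff2 and Tff3 at 0.04, 0.13 and -0.01. Dnah8 and Glp1r, the next genes after Glo1, were not matched to a spot.

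**Figure D4:**
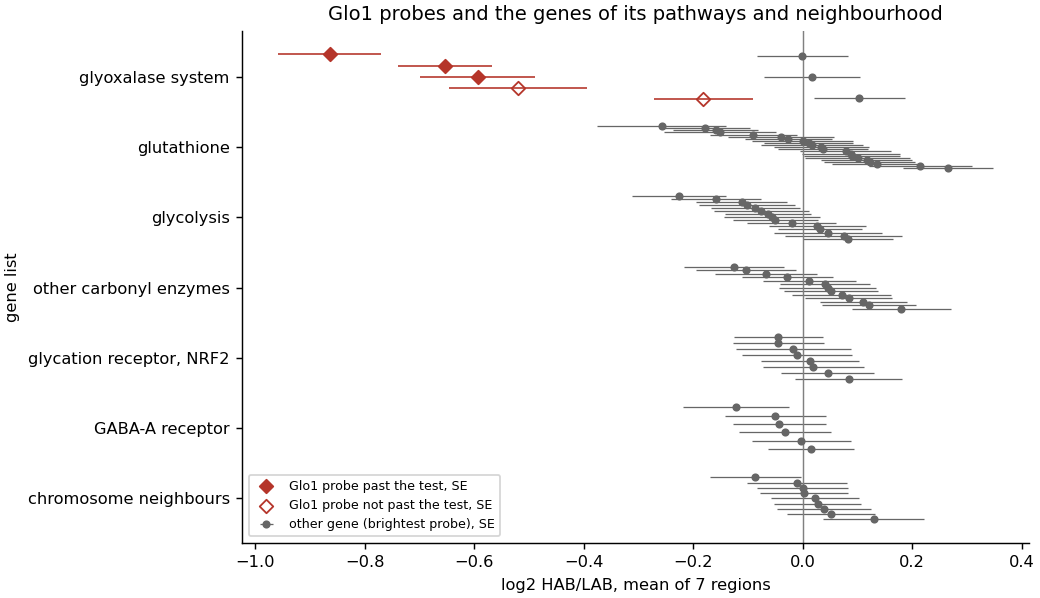
Mean log2 HAB/LAB over the 7 regions with its SE for the 5 Glo1 probes (diamonds, filled where the test over regions was passed) and for the other genes of the glyoxalase system, of related pathways and of the neighbourhood on chromosome 17 (dots, brightest probe of each gene). The other pathway genes lie between -0.26 and 0.27, and 4 of the 5 Glo1 probes lie below that range.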

How the data were processed

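RNA of pooled HAB and LAB tissue was measured on 70 two-colour arrays. Per the labels and the study's methods, RNA was extracted with TRIzol, amplified in 2 rounds and coupled to Cy3 or Cy5. The authors deposited scanner intensities of each spot and its surroundings, linear and not normalized, and a table of normalized log2 ratios, centred and already turned to HAB/LAB; the table was used as an alternative. Each column of this table correlated with the ratio computed here from the same array (r from 0.861 to 0.972), which settles its direction.

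The dye of each line was taken from the labels; on 3 arrays the dye of a channel was read from the scan image's name. Of 24192 spots, 1368 control spots were left out (1170 of them empty), leaving 22824 probes. Intensities were background corrected (normexp, offset 50), normalized by loess over 40% of the spots and centred on each of 48 print-tip blocks (limma 3.58.1, R 4.3.3, statmod 1.5.0). The 5 ratios of each dye orientation were averaged, and a region's value is the mean of the 2 orientations. limma tested an intercept over the 7 region values, an intercept with a dye term over the 10 arrays of a region, and equality of regions over 70 arrays; p-values were Benjamini-Hochberg adjusted over all probes, with a threshold of 0.05. Levels were taken after loess and Aquantile. A probe was above the empty spots when it exceeded their median by 2 median absolute deviations. Of the probes, 6965 were paired with a symbol; several probes of a gene were represented by the brightest. The number of arrays, and of 1 pool per line, limits the precision.

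The 5 Glo1 probes and the gene lists were chosen with earlier results of these data known. Named genes were all Glo1 probes, members past the test, the direct partner of Glo1 in each list, and the 5 probes nearest to probe 9180. Alternatives were no background correction, print-tip loess, median centring, the authors' log2 table, left-out replicates or regions, 1 dye orientation, a replicate block, the scan day, a filter on dim probes and the mean of a gene's probes. The fit was tested on simulated data. The results of 2 marker genes are not reported here.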

Additional observations from a re-analysis of the deposited data

Results flagged for a closer look

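Of 70 groups of 5 arrays (5 probes, 7 regions, 2 dye orientations), 5 held an array that stood apart from the other 4 by more than Dixon's critical value of 0.71; chance gives about 3.5. They were probe 11751 in Cg with HAB in Cy5, replicate 5 (log2 HAB/LAB 1.66), probe 11751 in SON with HAB in Cy3, replicate 1 (0.59), probe 14858 in PVN with HAB in Cy3, replicate 5 (-1.63), probe 14858 in PVN with HAB in Cy5, replicate 3 (-0.30), and probe 14858 in BLA with HAB in Cy3, replicate 5 (-1.88). None belongs to probes 9180, 15720 or 20091.

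The difference between the lines itself differed between regions for probe 11751, whose region values spanned 1.54 log2 units, and for probe 14858, whose values spanned 0.91, by limma's F-test over the arrays. Neither the array that stood apart in Cg nor the span over regions was tested for a cause.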

How the results depend on the processing

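Over the 7 regions, probes 9180 and 15720 kept their direction and passed the test under every alternative run for them (background, normalization within the array, the authors' log2 table, left-out replicates and regions, 1 dye orientation, a replicate block, the scan day and the filter on dim probes). Probe 14858 no longer passed with median centring alone (-0.58, adjusted p = 0.0548, limma). Probe 11751 passed with the authors' table (-0.76, adjusted p = 0.0304, limma), which holds it in 4 of 7 regions. Over these regions the main values also average -0.76. It also passed without NAc (-0.59) and without Cg, and with 1 region left out it ran from -0.65 to -0.39. With the replicate block it stood at -0.52 (adjusted p = 0.00899, limma). That fit takes a value per replicate number in each region, with region as the block. It counts technical repeats, so its smaller p-value is not further evidence of a difference between the lines. Probe 20091 turned to 0.020 with HAB in Cy3 alone. Between regions, probe 15720 passed with no background correction (range 0.74, adjusted p = 0.0316), with median centring (0.95, adjusted p = 0.00704) and with the authors' table (0.82, adjusted p = 0.000274), and probe 11751 did not pass without replicate 4 or 5 (1.56 and 1.22; 1.22 to 1.85 with 1 replicate number left out).

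The count of 9 probe and region pairs past the test was 15 of 30 with the authors' table, which lacks probe 11751 in 3 regions and probe 20091 in 2 and adjusts over 8451 to 18598 probes, 4 with the replicate block and 3 to 7 with 1 replicate number left out. The replicate numbers do not pair the arrays: over 35 pairs of arrays of the same number, r of their deviations ran from -0.05 to 0.04, none over 0.1, and 8 arrays correlated best with their own number. The region values that changed sign lay between -0.13 and 0.23 in the main setting. Probe 20091 turned in CeA with print-tip loess (0.054) and median centring (0.12) and ran from -0.26 to 0.20 with 1 replicate number left out. In Cg it turned with print-tip loess (0.018) and ran from -0.16 to 0.040, in MeA from -0.23 to 0.0090 and in NAc from -0.11 to 0.25 with 1 number left out. Probe 11751 ran from -0.26 to 0.021 in NAc and from -0.073 to 0.52 in Cg. With the authors' table, the mean difference between probes 9180 and 11751 turned to 0.11 and that between 11751 and 14858 to -0.049, over the 4 regions with values of probe 11751; the main values over these regions give 0.11 and -0.074. The cause of the other changes was not tested. Signal over the empty spots limits probes 20091 and 11751 most.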
